A study of Mus musculus with 19 samples.

Results

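LCWE, a cell wall extract of Lactobacillus casei that is injected to model the coronary vasculitis of Kawasaki disease, was compared with PBS in mouse hearts of both genotypes at once. All 19 libraries of the series entered the comparison. LCWE was given in 5 Mcm8 knockout libraries and 6 wild-type libraries, and PBS in 3 Mcm8 knockout libraries and 5 wild-type libraries, so that 11 LCWE hearts stood against 8 PBS hearts. Mcm8 encodes a DNA helicase of replication and homologous recombination, and the series was made to ask what it does for blood vessels in this model. The effect described here is the 1 LCWE coefficient that both genotypes share, fitted with genotype as a second term. No source used here gives the dose, the time after injection, age or sex, and both the knockout and its controls are described by genotype only. Whether each sample is an animal of its own is also not stated, so p-values speak only of the spread among these samples, which may be technical. The RNA came from whole heart tissue, in which fewer cells of a type and less RNA per cell cannot be told apart.

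A bacterial cell wall fragment of this kind is sensed by pattern recognition receptors of macrophages and endothelium. Chemokines and adhesion molecules then draw neutrophils, monocytes and T cells into the wall of the coronary arteries and the muscle around it. Glucocorticoids, the stress hormones of the adrenal cortex, act the other way and switch on genes that dampen inflammation and growth signals.

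Library totals ranged from 11853233 to 16145911 counts. Sarcomere and Z-disc genes, the defining transcripts of heart muscle, summed to between 121170 and 156058 CPM in LCWE hearts and between 111139 and 145354 CPM in PBS hearts. CPM values correct each count for library size, here with TMM factors. Mcm8 lay between 0.130 and 0.910 CPM in the 8 knockout libraries and between 2.60 and 5.19 CPM in the 11 wild-type libraries. Some measures differed between libraries in ways that the labels do not explain. Alb, a liver transcript, exceeded 20 CPM in 9 of the 11 LCWE and 4 of the 8 PBS libraries. Xist, the X inactivation transcript, exceeded 100 CPM in 6 of the 11 LCWE and 7 of the 8 PBS libraries, the summed Y-linked genes did so in 4 and 1 of them, and 1 LCWE library had neither. The PBS library with Y-linked genes was Mcm8Ko_PBS replicate 1. Rn45s, the ribosomal RNA precursor, reached 1257 to 2374 CPM in Wt_LCWE replicates 1 to 3 and 437 to 740 CPM in the other 16 libraries. The sample numbers in the labels fall below 100 for 4 LCWE and 1 PBS library, from 100 to under 200 for 6 and 5, and at 200 or above for 1 and 2. The PBS library below 100 is a knockout library, and the LCWE library from 200 is wild type. Values given for these lowest and highest ranges are differences of mean log2 CPM with no genotype term, so a genotype difference can enter them. From 100 to under 200 a genotype term was fitted, with 1 knockout PBS library.

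In hearts of both genotypes, genes of leukocyte surface receptors and chemokines (Ptprc, Fcgr4, Fpr2, Cxcr3, Ccl5, Ccl12) rose with LCWE. The stress gene Ddit4, the glucocorticoid-induced gene Tsc22d3 and the endothelial receptor gene S1pr1 fell. Of 14301 genes tested, 23 changed (0.161%). Of these, 14 rose (0.0979%) and 9 fell (0.0629%), at an edgeR quasi-likelihood adjusted p under 0.05. A gene is named as called where it passed this threshold, and log2 fold changes are LCWE over PBS with their SE. The strongest call was the fall of Ddit4, an inhibitor of mTOR signalling that stress and glucocorticoids induce. The other 22 genes shared an adjusted p of 0.0499, with unadjusted p from 9.96e-06 to 8.02e-05. The count therefore turned on a narrow margin, and 411 genes (240 higher, 171 lower) lay under an adjusted p of 0.1. Leaving out 1 library gave from 1 to 144 calls with a median of 1. The count was 144 without Wt_LCWE replicate 4, 82 without Mcm8Ko_PBS replicate 2, and 13, 7, 3 and 2 without Wt_LCWE replicate 6, Wt_PBS replicate 4, Wt_LCWE replicate 2 and Mcm8Ko_LCWE replicate 2. Without any other 1 of the 13 remaining libraries it was 1. At an unadjusted p under 0.05 stood 3137 genes (21.9%), of which 1672 were higher (11.7%) and 1465 lower (10.2%). Among libraries with Xist over 100 CPM, which hold 1 knockout LCWE library, there were 0 calls (edgeR, 1985 genes at an unadjusted p under 0.05). Without the 3 libraries of high Rn45s there were 4, all lower. The libraries with Alb at or below 20 CPM are 2 wild-type LCWE, 3 wild-type PBS and 1 knockout PBS library, with no knockout LCWE library, too few to read a common effect from (0 calls, 1760 genes at an unadjusted p under 0.05, edgeR). With a term for the sample-number range there was 1 call, Ddit4, and none of the 14 higher calls remained. Likewise 1 lower and 0 higher calls remained without the robust option of edgeR, with the number of genes detected as a covariate, and with a filter of 5 CPM in 3 libraries, which left 13 of the 23 genes in the test. All 23 genes, where tested, kept their sign in these fits, which reuse the libraries that made the calls. DESeq2 called 572 genes, and limma-voom called 3. Scaling by library totals alone gave 3 higher and 10 lower calls, in place of 14 and 9.

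**Figure D1:**
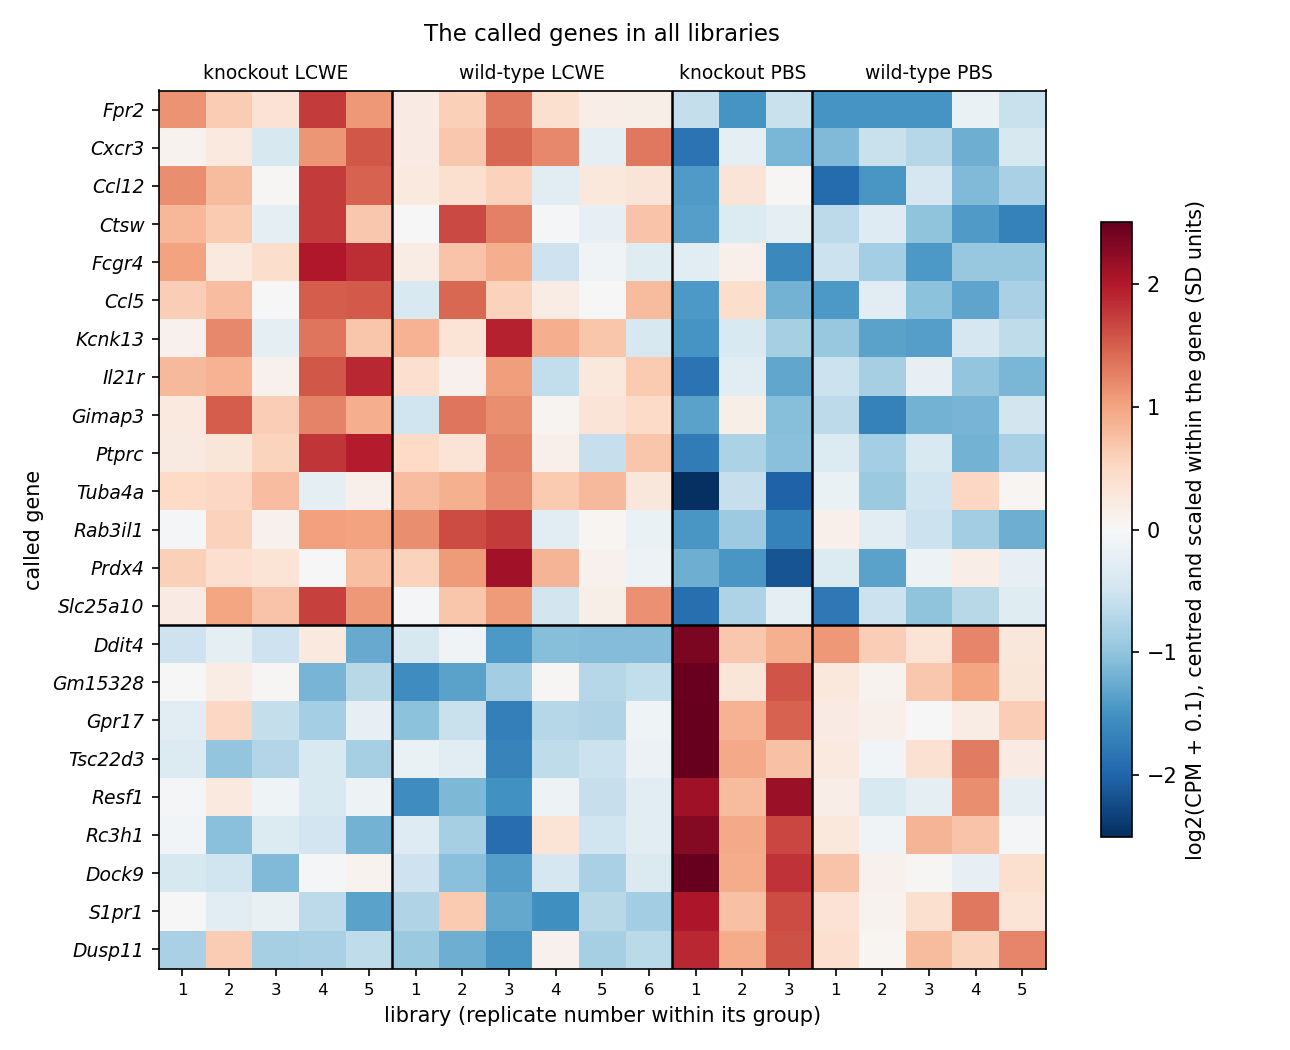
The 23 called genes (down the page, higher after LCWE above the line and lower below it) in each of the 19 libraries, as log2(CPM + 0.1) centred and scaled within each gene, in SD units. Knockout and wild-type LCWE libraries stand left of knockout and wild-type PBS libraries, the LCWE and PBS blocks differ in colour in both genotypes, and Mcm8Ko_PBS replicate 1 is the most extreme library for most genes that fell.

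Ddit4 was the 1 gene whose call held in all 19 fits with a library left out. It lies on chromosome 10, 59949669 to 59951834, on the minus strand of GRCm38. It read 63.5, 73.7, 63.5, 97.4 and 42.5 CPM in the 5 knockout LCWE hearts and 68.0, 80.3, 38.2, 47, 46.7 and 46.8 CPM in the 6 wild-type LCWE hearts, against 311, 122.95 and 139 CPM in knockout PBS hearts and 154, 119, 102, 166 and 99 CPM in wild-type PBS hearts. Every LCWE library lay below every PBS library, and knockout PBS replicate 1 stood highest. Ddit4 fell by 1.34 ± 0.19 on the log2 scale (SE, edgeR adjusted p = 0.0132). Its log2 fold change was -1.49 ± 0.30 in the knockout and -1.23 ± 0.26 in wild type, with an unadjusted interaction p of 0.529. Within the sample-number ranges the log2 difference was -1.16 below 100, -1.50 ± 0.24 from 100 to under 200 and -1.32 from 200. The first and last of these have no genotype term. Over the alternatives and left-out fits its log2 fold change stayed between -1.50 and -1.11 and its adjusted p between 3.58e-08 and 0.336. The call was lost in 2 of them, among libraries with Xist over 100 CPM (-1.11) and in the 6 libraries with Alb at or below 20 CPM, which hold no knockout LCWE library (-1.42). Without Mcm8Ko_PBS replicate 1 Ddit4 was at -1.13 ± 0.17 (edgeR adjusted p = 0.0270).

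Tsc22d3, which encodes the glucocorticoid-induced leucine zipper GILZ, fell with it. Its lowest, median and highest levels were 57.3, 82.2 and 92.6 CPM in LCWE hearts, against 95.3, 116 and 244 CPM in PBS hearts. As with Ddit4, the 2 sets of libraries did not overlap, which was so for 2 genes lower after LCWE (0.014%) and 6 genes higher (0.042%) of all tested. Tsc22d3 fell by 0.70 ± 0.14 (edgeR adjusted p = 0.0499), with a log2 fold change of -1.07 in the knockout and -0.45 in wild type. Without Mcm8Ko_PBS replicate 1 Tsc22d3 was at -0.53 ± 0.10 (edgeR adjusted p = 0.106). The list of 20 glucocorticoid target genes held both called genes, and 16 of its members lay below 0 (against 48.5% of all genes tested), of which 12 did so in both genotypes (against 31.9%). The list was chosen with earlier results of these data known, so its holding both genes is not separate support. Its median log2 fold change was -0.31, against 0.0087 over all tested genes, with medians of -0.65 in the knockout and -0.17 in wild type. Without Mcm8Ko_PBS replicate 1 it was -0.18, and among libraries with Xist over 100 CPM it was -0.06. Within the sample-number ranges the median was -0.07, -0.68 and -0.49 in ascending order. Summed over the list, the median level in the knockout was 4325 CPM in LCWE hearts and 4048 CPM in PBS hearts. In wild type it was 2940 CPM in LCWE hearts and 3486 CPM in PBS hearts, so the summed level had no common direction. In this list Nfkbia, the inhibitor of NF-kB, was at -0.48 ± 0.13 (edgeR adjusted p = 0.0888) and was not called.

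The promoters of Ddit4, Fcgr4 and Ccl12 are shown as examples of a stress gene that fell and of an Fc receptor gene and a chemokine gene that rose. The windows are RefSeq sequence on GRCm38.p6, read 5′ to 3′ on the strand of the gene and ended where the annotated gene begins. They are chr10:59951835-59952020 (minus strand) for Ddit4, chr1:171018676-171018919 (plus strand) for Fcgr4 and chr11:82101595-82101844 (plus strand) for Ccl12. Capitals mark motif matches on either strand, CCAAT in Ddit4, the interferon-response pattern (GAAA, 2 free bases, GAAA) and then the PU.1 pattern GAGGAAGT in Fcgr4, and TATAAA in Ccl12.
Ddit4: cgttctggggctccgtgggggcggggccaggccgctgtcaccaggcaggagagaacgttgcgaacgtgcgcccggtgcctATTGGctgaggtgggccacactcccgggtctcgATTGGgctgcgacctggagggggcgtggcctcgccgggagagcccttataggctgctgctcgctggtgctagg
Fcgr4: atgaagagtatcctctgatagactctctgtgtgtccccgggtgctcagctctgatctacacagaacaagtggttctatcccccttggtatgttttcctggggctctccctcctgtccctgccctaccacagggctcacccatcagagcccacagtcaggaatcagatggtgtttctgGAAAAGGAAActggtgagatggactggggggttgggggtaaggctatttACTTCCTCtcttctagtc
Ccl12: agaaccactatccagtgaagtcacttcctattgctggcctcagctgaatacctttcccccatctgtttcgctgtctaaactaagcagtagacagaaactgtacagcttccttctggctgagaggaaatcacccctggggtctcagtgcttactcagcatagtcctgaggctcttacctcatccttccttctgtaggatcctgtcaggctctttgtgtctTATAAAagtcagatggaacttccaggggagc
Of the 23 called genes, 18 matched a RefSeq window. Among 32851 windows of 250 bases upstream, CCAAT stood in 33.8%, the interferon-response pattern in 2.98%, GAGGAAGT in 2.44% and TATAAA in 12.4%. Of the 27 windows of called genes, some of which overlap within 1 gene, 4 held CCAAT, 1 the interferon-response pattern, 2 GAGGAAGT and 4 TATAAA. The glucocorticoid-response pattern (GNACA, 3 free bases, TGTNC) stood in 0.387% of all windows, the kB pattern (GGGA, 2 free bases, TTCC) in 1.21% and the cyclic AMP pattern TGACGTCA in 1.55%, and 0 of the 27 windows of called genes held one of these 3. CACGTG, the E-box, stood in 6.02% of all windows and in 4 of the 27, of which 2 are overlapping windows of Rab3il1 with the same matches. The 3 windows were chosen after the matches were seen, and a match is a run of letters, not a measured site.

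The genes that rose include receptors and surface proteins of leukocytes. Ptprc encodes CD45, the phosphatase that all leukocytes carry. Its lowest, median and highest levels were 6.90, 10.9 and 20.2 CPM in LCWE hearts, against 4.2, 6.2 and 7.6 CPM in PBS hearts. All but 1 of the 11 LCWE libraries lay above the highest PBS library. Ptprc rose by 0.96 ± 0.18 (edgeR adjusted p = 0.0499), with 1.37 in the knockout and 0.70 in wild type. Fcgr4, an activating receptor for IgG on neutrophils and monocytes, lay at 1.10, 2.62 and 10.1 CPM in LCWE hearts, against 0.377, 0.776 and 1.99 CPM in PBS hearts. The sets overlapped in 3 LCWE libraries, and knockout LCWE replicates 4 and 5 stood highest. Fcgr4 rose by 1.81 ± 0.37 (edgeR adjusted p = 0.0499), with 2.14 in the knockout and 1.54 in wild type. Fpr2, a receptor that guides neutrophils and monocytes along formylated bacterial peptides, lay at 0.406, 0.681 and 2.37 CPM in LCWE hearts, against 0, 0.07 and 0.267 CPM in PBS hearts. Every LCWE library lay above every PBS library, though these levels stand for a handful of counts. With at most 4 counts in a PBS library, Fpr2 passed the filter on low counts through LCWE libraries alone. That favours both its rise and the gap between the sets, so neither is separate support. Fpr2 rose by 3.13 ± 0.56 (edgeR adjusted p = 0.0499), with 3.54 in the knockout and 2.82 in wild type.

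The chemokine genes Ccl12 and Ccl5 and the chemokine receptor gene Cxcr3 rose as well. Ccl12, a mouse chemokine that recruits monocytes, lay at 0.472, 1.05 and 4.68 CPM in LCWE hearts, against 0, 0.178 and 0.960 CPM in PBS hearts. Ccl5, which attracts T cells and monocytes, lay at 1.09, 2.47 and 5.21 CPM in LCWE hearts, against 0.42, 0.57 and 2.13 CPM in PBS hearts. The LCWE medians of both stood above the PBS medians, and the highest PBS value of each, in Mcm8Ko_PBS replicate 2, lay within the LCWE range. Ccl12 rose by 2.31 ± 0.45 and Ccl5 by 1.75 ± 0.36 (edgeR adjusted p = 0.0499 for each). Their changes were 2.16 and 1.72 in the knockout and 2.47 and 1.78 in wild type, with unadjusted interaction p of 0.716 and 0.933. Cxcr3, the receptor through which activated T cells follow interferon-induced chemokines, lay at 0.225, 0.681 and 1.5 CPM in LCWE hearts, against 0, 0.118 and 0.274 CPM in PBS hearts. It rose by 2.5 ± 0.49, with 2.53 in the knockout and 2.48 in wild type. Il21r, the interleukin-21 receptor of lymphocytes, rose by 1.47 ± 0.30, and lay at 0.865, 2.03 and 4.49 CPM in LCWE hearts, against 0.350, 0.707 and 1.14 CPM in PBS hearts. Ctsw, a cathepsin of cytotoxic lymphocytes, rose by 1.84 ± 0.37, Gimap3, a GTPase of T cells, by 1.22 ± 0.22, and the potassium channel gene Kcnk13 by 1.57 ± 0.30 (edgeR adjusted p = 0.0499 for each). In Il21r, Ctsw and Kcnk13, 10 of 11 LCWE libraries lay above the highest PBS library, and in Gimap3 9 did. Cxcr3 had at most 4 counts in a PBS library, and Ctsw and Kcnk13 at most 9. These 3 genes therefore passed the filter on low counts through LCWE libraries alone, which favours a rise. Gimap3, Kcnk13, Il21r, Ctsw and Gm15328 lie below a mean of 5 CPM, outside the rule for named genes, and were named after their values were seen. In all, 10 of the 23 calls lay below that mean.

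The other genes that rose belong to none of the leukocyte marker lists used here, and whether leukocytes express them in these hearts was not tested. Of the genes that rose named before, Fpr2 and Ptprc alone are in such a list. Il21r, Ctsw, Gimap3 and Kcnk13 are in none of them either. Tuba4a, an alpha-tubulin gene, had 1132, 1756 and 2277 CPM in LCWE hearts, against 341, 971 and 1642 CPM in PBS hearts. Of the LCWE libraries 7 lay above the highest PBS library, and the 3 knockout PBS libraries, at 341, 464 and 954 CPM, were among the 4 lowest. Tuba4a rose by 0.95 ± 0.19, with 1.38 in the knockout and 0.67 in wild type and an unadjusted interaction p of 0.0543. Rab3il1, an exchange factor for Rab GTPases, rose by 0.62 ± 0.12, and its levels were 12.7, 16.2 and 22.4 CPM in LCWE hearts, against 8.59, 10.8 and 14.3 CPM in PBS hearts. Slc25a10, the mitochondrial dicarboxylate carrier, rose by 0.40 ± 0.08, and its levels were 22.6, 28.0 and 33.6 CPM in LCWE hearts, against 17.4, 21.5 and 23.6 CPM in PBS hearts. Prdx4, a peroxiredoxin of the endoplasmic reticulum, rose by 0.43 ± 0.09, and its levels were 19.3, 22.2 and 29.8 CPM in LCWE hearts, against 13, 17 and 20.4 CPM in PBS hearts (edgeR adjusted p = 0.0499 for each of these 4 genes). The 2 sets of libraries overlapped in each of these 4 genes.

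Among the genes that fell beside Ddit4 and Tsc22d3, S1pr1 encodes the sphingosine-1-phosphate receptor that tightens endothelial junctions. Its levels were 75.8, 91.9 and 125 CPM in LCWE hearts, against 110, 122 and 170 CPM in PBS hearts. The LCWE library that overlapped the PBS range was Wt_LCWE replicate 2, and the other 10 lay below all PBS libraries. S1pr1 fell by 0.50 ± 0.10 (edgeR adjusted p = 0.0499), with -0.64 in the knockout and -0.40 in wild type. Dock9, an activator of the GTPase Cdc42, lay at 60.8, 74.8 and 85.7 CPM in LCWE hearts, against 80.1, 95.8 and 159 CPM in PBS hearts, and fell by 0.51 ± 0.09. Rc3h1, whose product Roquin-1 marks inflammatory messenger RNAs for decay, lay at 19, 28 and 35 CPM in LCWE hearts, against 31.0, 39.4 and 59.4 CPM in PBS hearts, and fell by 0.57 ± 0.12. In Dock9 and Rc3h1, 9 of 11 LCWE libraries lay below the lowest PBS library, and the 3 knockout PBS libraries were the highest of the 19. Gpr17, a G protein-coupled receptor, fell by 0.82 ± 0.15 and lay at 3.66, 5.69 and 8.76 CPM in LCWE hearts, against 7.22, 8.45 and 21.2 CPM in PBS hearts. Resf1, a silencing factor of retroelements, fell by 0.70 ± 0.14 and lay at 12.7, 20.3 and 24.3 CPM in LCWE hearts, against 19.4, 26.7 and 49.0 CPM in PBS hearts. Dusp11, a phosphatase that trims the 5′ triphosphate of RNA, fell by 0.38 ± 0.06 and lay at 55.4, 61.5 and 77.3 CPM in LCWE hearts, against 70.4, 80.1 and 94.2 CPM in PBS hearts. The long noncoding RNA gene Gm15328 fell by 1.05 ± 0.21, from few counts (edgeR adjusted p = 0.0499 for each of these genes).

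**Figure D2:**
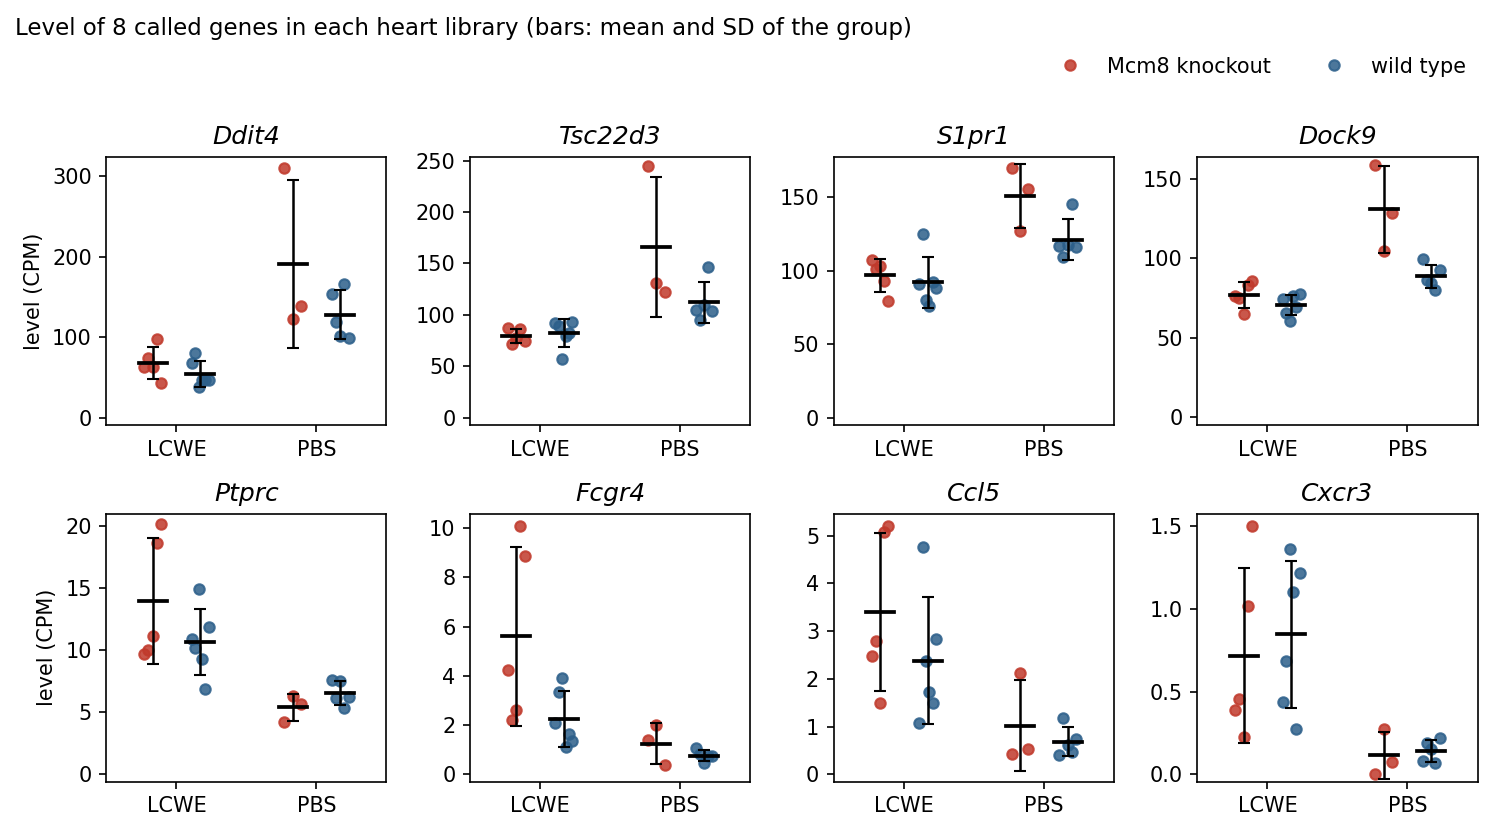
Levels of 8 called genes in every library, in CPM, with LCWE left of PBS and knockout libraries (red) left of wild-type libraries (blue). Points are libraries, and bars give the mean and SD of each group of 3 to 6. Ddit4 and Tsc22d3 lie lower after LCWE in all 11 LCWE libraries, and Ptprc, Fcgr4, Ccl5 and Cxcr3 lie higher with some overlap.

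Gene lists were read by their counts and medians beside those of all tested genes, and 7 of 61 lists held a called member, 5 of them higher and 2 lower. Of all tested genes 11.7% were higher and 10.2% lower at an unadjusted p under 0.05 (edgeR). Above 0 lay 51.5%, and 34.3% did so in both genotypes. The counts of every list below are to be set against these shares. Lists and members were chosen with earlier results of these data known. Members with too few counts were not tested, and a low member can enter the test through the LCWE libraries alone, so the counts describe the tested members only. Of 20 listed neutrophil markers, 12 were tested and 1 rose, Fpr2, while 10 had an unadjusted p under 0.05 and all 12 lay above 0 (against 51.5% of all genes tested), also in both genotypes (against 34.3%). Their median log2 fold change was 2.56 (3.54 in the knockout, 1.84 in wild type). S100a9, a calprotectin subunit of neutrophils, lay at 0.811, 4.67 and 47 CPM in LCWE hearts, against 0.151, 0.879 and 2.34 CPM in PBS hearts, and its partner S100a8 at 0.270, 1.87 and 21.4 CPM, against 0.148, 0.479 and 0.810 CPM. Both were highest in knockout LCWE replicate 4 and next in wild-type LCWE replicate 3, and neither was called (log2 fold change 3.23 ± 0.79 and 3.16 ± 0.74, edgeR adjusted p = 0.0819 and 0.0803). Summed over the 20 listed markers, the level ran from 14.1 to 172 CPM in LCWE hearts (median 26.4) and from 4.87 to 22.9 CPM in PBS hearts (median 13.3).

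Of 19 listed T and NK cell markers, 11 were tested, 0 were called and 8 had an unadjusted p under 0.05, all higher. Their median was 1.69, and all 11 lay above 0 in both genotypes (against 34.3% of all genes tested). Low members such as Cd8a, with at most 5 counts in a PBS library, could enter the test through the LCWE libraries alone. The median and counts therefore describe the tested members only. Cd8a, the alpha chain of the CD8 co-receptor, was at 2.11 ± 0.50 (edgeR adjusted p = 0.0803), Cd8b1 at 2.48 ± 0.58 (0.0803) and the T cell kinase gene Lck at 1.69 ± 0.44 (0.083). The summed level was 19.3, 28.1 and 44.3 CPM in LCWE hearts (lowest, median and highest), against 9.38, 18.3 and 24.2 CPM in PBS hearts. B and plasma cell markers had a median of 0.50 over 6 tested members, with 1 under an unadjusted p of 0.05 (against 21.9% of all genes tested). Dendritic cell markers had a median of -0.20 over 5. The sample-number ranges differed for the lymphocyte lists. In ascending order of range, T and NK cell markers had medians of 0.16, 2.10 and 1.02, while neutrophil markers had 1.55, 2.65 and 1.59. The lowest and highest range have no genotype term here.

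Monocyte and pan-macrophage markers had log2 fold changes above 0 throughout. Of 22 tested members 1 rose, Ptprc, 20 had an unadjusted p under 0.05, and all 22 lay above 0 in both genotypes, with a median of 0.95 (1.42 in the knockout, 0.66 in wild type). Resident cardiac macrophage markers had a median of 0.59 over 17, with 0 called, 9 under an unadjusted p of 0.05 and 16 above 0 in both genotypes. Mrc1, the mannose receptor CD206, lay at 22.2, 31.5 and 49.9 CPM in LCWE hearts, against 10.8, 19.3 and 29.5 CPM in PBS hearts. It was at 0.85 ± 0.18 (edgeR adjusted p = 0.0612). C1qb, a subunit of the complement starter C1q that tissue macrophages make, lay at 42.1, 75.8 and 188 CPM in LCWE hearts, against 19.4, 42.5 and 62.3 CPM in PBS hearts. The highest 2 were knockout LCWE replicates 4 and 5, the lowest 2 were knockout PBS replicates 3 and 1, and the sets overlapped. C1qb was at 1.06 ± 0.27 (edgeR adjusted p = 0.0819), C1qa at 1.01 ± 0.25 and C1qc at 1.02 ± 0.27. The genes whose log2 CPM ran closest to C1qb over the 19 libraries were C1qa (Pearson r = 0.981), C1qc (0.979), Pld4 (0.965), Laptm5 (0.958) and Fcer1g (0.958), a description over libraries that share the LCWE difference. Of 15 complement genes, 0 were called and 8 had an unadjusted p under 0.05, all higher, with a median of 0.66.

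The effector genes of phagocytes had medians above 0 as the cell markers did. Of 13 Fc receptors and their signalling adaptors, Fcgr4 rose, 11 had an unadjusted p under 0.05 and all 13 lay above 0, with a median of 0.73. Several members, such as Fcer1g, the shared gamma chain, also serve as macrophage markers. Of 7 NADPH oxidase genes, which make the oxidative burst, 0 were called, 6 had an unadjusted p under 0.05 and the median was 0.81. Rac2, its small GTPase, was at 1.34 ± 0.31 (edgeR adjusted p = 0.0784) and Ncf1, its organiser subunit, at 0.81 ± 0.22 (0.0888). Of 11 tested CC chemokines, Ccl12 and Ccl5 rose and 6 had an unadjusted p under 0.05, with a median of 0.96. Of 7 tested chemokine receptors, Cxcr3 rose and 5 had an unadjusted p under 0.05, with a median of 1.23. CXC and CX3C chemokines had a median of 0.21, with Cxcl5 at 1.70 ± 0.50 and Cxcl10 at 1.21 ± 0.41 (edgeR adjusted p = 0.0981 and 0.121). Interleukin-1 and inflammasome genes had a median of 0.50 with 0 of 13 called, among them Pycard, the inflammasome adaptor ASC, at 0.95 ± 0.20 (edgeR adjusted p = 0.0639). Toll-like receptor and adaptor genes had a median of 0.44 with 0 of 20 called and 9 under an unadjusted p of 0.05, led by the receptor chaperone gene Unc93b1 (0.82 ± 0.21, edgeR adjusted p = 0.0819).

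The cytokine genes that usually stand for acute inflammation were low in these hearts. Il1b lay at 0.135, 0.680 and 1.69 CPM in LCWE hearts, against 0.140, 0.346 and 0.934 CPM in PBS hearts (log2 fold change 0.51 ± 0.51, edgeR adjusted p = 0.584). Tnf was at 0.87 ± 0.45 (0.258) and Ccl2 at 0.68 ± 0.38 (0.297), and Il6, with at most 2 counts in a library, was not tested. Saa3, an acute phase gene that macrophages also express, lay at 0.674, 1.38 and 16.8 CPM in LCWE hearts, against 0, 0.300 and 0.867 CPM in PBS hearts. Knockout LCWE replicates 4 and 5 held 16.8 and 10 CPM and the other 9 LCWE libraries at most 2.81 CPM, and Saa3 was not called (2.94 ± 0.75, edgeR adjusted p = 0.0829). Interferon-stimulated antiviral genes had 0 of 26 called and 1 under an unadjusted p of 0.05, with a median of 0.29, and the interferon-inducible GTPases 0 of 13 at either limit, with a median of -0.10. Mx1, an antiviral GTPase, was at 1.29 ± 0.51 (edgeR adjusted p = 0.159). The MHC class I list stood at a median of 0.34, 4 of 13 under an unadjusted p of 0.05, and the MHC class II list at 0.51, with 0 of 8. The interferon-stimulated list had medians of -0.74, 0.32 and -0.27 in ascending order of sample-number range, so its sign differed between ranges. So did that of the MHC lists, at -0.40, 0.55 and -0.26 for class I and -0.45, 1.2 and 0.80 for class II in the same order. The lowest and highest range have no genotype term, and the 1 PBS library below 100 is a knockout library. A genotype difference can therefore enter these values.

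**Figure D3:**
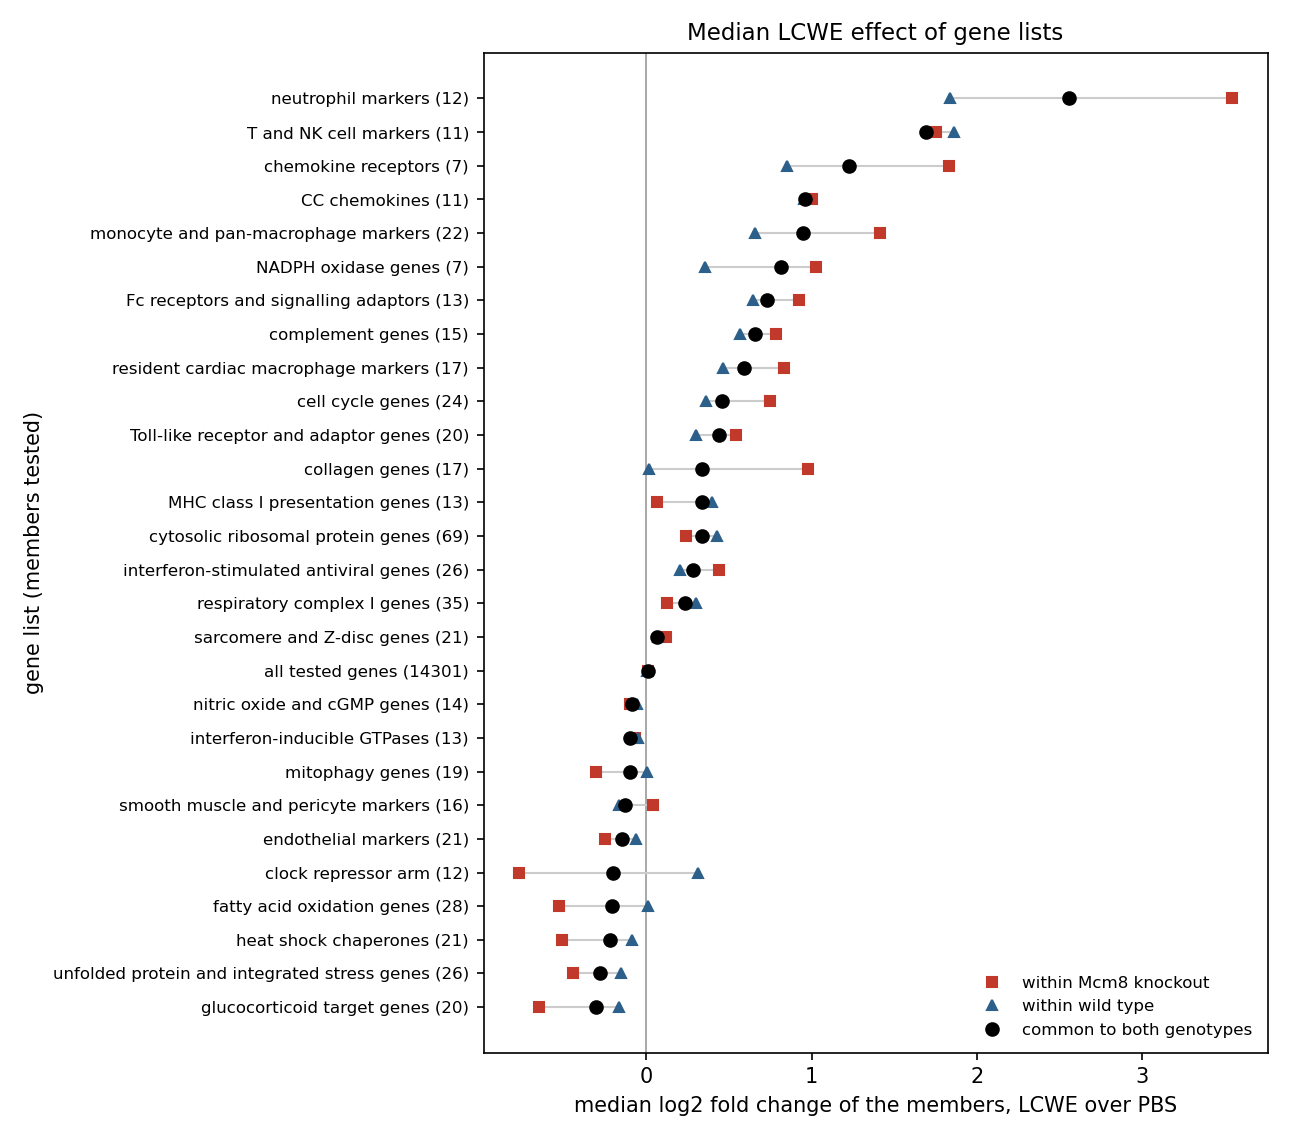
Median log2 fold change, LCWE over PBS, of the tested members of 27 gene lists and of all tested genes, with the number tested in brackets. Squares give the knockout, triangles wild type and circles the common effect. Among the lists shown, a selection from 61, those of neutrophil and of T and NK cell markers stand highest at 2.56 and 1.69. The list of X inactivation and Y-linked genes, not shown, had a median of 2.10 over 5 genes.

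No list of vessel wall genes held a called member. As 0.161% of all genes tested were called, 0 calls in lists of this size does not show that these genes were unchanged. The called endothelial gene S1pr1 is in none of these lists. Of 21 endothelial markers 0 were called, 7 had an unadjusted p under 0.05, all lower, and the median was -0.14. Klf2, the flow-induced transcription factor of endothelium, lay at 45.7, 59.0 and 90.1 CPM in LCWE hearts, against 71.7, 96.1 and 132 CPM in PBS hearts, just outside the threshold (-0.67 ± 0.14, edgeR adjusted p = 0.0555). Efnb2, the arterial ephrin gene, was at -0.52 ± 0.11 (0.0562), Ptprb, the endothelial phosphatase VE-PTP, at -0.45 ± 0.11 (0.0803) and Klf4 at -0.45 ± 0.13 (0.0937). Smooth muscle and pericyte markers had a median of -0.13 with 0 of 16 called. Acta2, smooth muscle actin, ran from 119 to 787 CPM in LCWE hearts and from 98.9 to 451 CPM in PBS hearts (1.12 ± 0.44, edgeR adjusted p = 0.156). Nitric oxide and cGMP genes had a median of -0.08 with 0 of 14 called, and the synthase genes Nos3 (-0.14 ± 0.11, edgeR adjusted p = 0.439) and Nos2 (0.18 ± 0.19, 0.592) were not called. Collagen genes had a median of 0.34 with 1 of 17 under an unadjusted p of 0.05, made up of 0.98 in the knockout and 0.01 in wild type.

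No list of heart muscle genes held a called member, which with 0.161% of all genes tested called does not show that they were unchanged. Sarcomere and Z-disc genes had a median of 0.07, with 0 of 21 called. At an unadjusted p under 0.05 stood 5 higher and 1 lower, against 11.7% and 10.2% of all genes tested. Actc1, cardiac actin, was at 0.62 ± 0.17 (edgeR adjusted p = 0.0878) and Tnnc1, troponin C, at 0.34 ± 0.10 (0.0932). Nppb, the B-type natriuretic peptide gene that wall stress induces, lay at 199, 370 and 1078 CPM in LCWE hearts, against 155, 220 and 390 CPM in PBS hearts. It was at 1.04 ± 0.27 (edgeR adjusted p = 0.083), while Nppa was at 0.12 ± 0.26 (0.825). Among ion channel genes, Kcna5 was at -0.53 ± 0.13 (edgeR adjusted p = 0.0803) and Kcne1 at 1.21 ± 0.34 (0.0937). Mitophagy genes had a median of -0.10 with 0 of 19 called, among them Bnip3 (-0.70 ± 0.23, edgeR adjusted p = 0.119) and Pink1 (-0.22 ± 0.12, 0.282). Fatty acid oxidation genes had a median of -0.20, made up of -0.53 in the knockout and 0.01 in wild type. Of these 28 genes 5 were lower at an unadjusted p under 0.05, against 10.2% of all genes tested.

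Ribosomal protein genes, the largest list, leaned to the higher side without a call. Of 69 tested members 0 were called, 55 had an unadjusted p under 0.05, all higher, and 67 lay above 0 in both genotypes, with a median of 0.34 (0.24 in the knockout, 0.43 in wild type). Rpsa was at 0.50 ± 0.14 (edgeR adjusted p = 0.0878) and Rps29 at 0.56 ± 0.16 (0.0937). Summed over the list, the highest level was 42409 CPM in LCWE hearts, in a wild-type library, and 25244 CPM in PBS hearts. Rn45s was high in Wt_LCWE replicates 1 to 3, at 0.62 ± 0.25 over all libraries (edgeR adjusted p = 0.165), and without these 3 libraries the ribosomal median was 0.13. The list median was 0.30 and 0.49 in the lower sample-number ranges and -0.06 in the highest, which holds 1 LCWE library. Respiratory complex I genes had a median of 0.23 with 17 of 35 higher at an unadjusted p under 0.05, led by Ndufa11 (0.40 ± 0.12, edgeR adjusted p = 0.0986). The complex I median was -0.006, 0.39 and 0.04 in ascending order of sample-number range, and 17 of the 35 genes lay above 0 in the lowest. The middle range holds the 3 libraries of high Rn45s. Cell cycle genes had a median of 0.46, with 0 of 24 called and 9 higher at an unadjusted p under 0.05, among them the replicative helicase genes Mcm6 (0.38 ± 0.10, edgeR adjusted p = 0.083) and Mcm5 (0.65 ± 0.19, 0.0986). The cell cycle median was -0.22, 0.79 and 0.14 in ascending order of sample-number range, and 7 of the 24 genes lay above 0 in the lowest.

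Of the stress and clock lists, those of chaperones, of the unfolded protein response and of clock activators and output had medians below 0 in both genotypes. Of 21 heat shock chaperone genes 0 were called, and 11 were lower and 1 higher at an unadjusted p under 0.05, with a median of -0.22 (-0.51 in the knockout, -0.09 in wild type). Bag3 was at -0.54 ± 0.18 (edgeR adjusted p = 0.118) and Hsp90aa1 at -0.41 ± 0.15 (0.131), while Hspe1, a mitochondrial chaperonin, was at 0.36 ± 0.12 (0.112). Of 26 unfolded protein and integrated stress genes, Ddit4 fell and 7 were lower at an unadjusted p under 0.05, with a median of -0.28. This median was 0.06, -0.16 and -0.62 in ascending order of sample-number range, so its sign differed between ranges. The summed level of the list reached 6781 CPM in a knockout PBS library, and at most 3229 CPM in wild-type PBS libraries. In the clock, Cry1 was at -0.66 ± 0.15 (edgeR adjusted p = 0.0723), Per1 at -0.78 ± 0.26 (0.123) and the output repressor gene Nfil3 at -0.69 ± 0.19 (0.0925), while the output activator gene Dbp was at 1.51 ± 0.61 (0.168). Dbp lay at 4.87, 18.7 and 112 CPM in LCWE hearts, against 3.76, 9.17 and 23.1 CPM in PBS hearts, with wide overlap. In the list of clock activators and output genes, 1 of 11 members lay above 0 and 10 below. Its median was -0.23 (-0.53 in the knockout, -0.06 in wild type). No source used here gives the time of day of sampling. The clock repressor list had medians of -0.77 in the knockout and 0.31 in wild type, so it had no common direction. Immediate early genes had a median of -0.21 with 6 of 24 lower at an unadjusted p under 0.05, among them Zfp36, a decay factor of cytokine messenger RNA (-0.58 ± 0.18, edgeR adjusted p = 0.113).

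The groups did not overlap in 8 genes, of which 3 were called, Fpr2, Ddit4 and Tsc22d3. Fpr2 had passed the filter on low counts through LCWE libraries alone, which favours such a gap. Of the other 5, 4 are given here, singled out after their values were seen. Otub1, a deubiquitinase gene, ranged from 65.6 to 101 CPM in LCWE hearts and from 54.3 to 64.7 CPM in PBS hearts (0.27, edgeR adjusted p = 0.0936). Tmem176a, a membrane protein gene of myeloid cells, ranged from 11.5 to 32.3 CPM in LCWE hearts and from 4.13 to 10.3 CPM in PBS hearts (0.89, edgeR adjusted p = 0.0803). Bcam, the laminin receptor gene, was at 0.26 and the cathepsin gene Ctso at 0.36 (edgeR adjusted p = 0.0803 and 0.0562). These 4 lay higher after LCWE in every library, and none passed the threshold.

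How far the response was common to both genotypes was read from the effects within each, which share no libraries. Over all 14301 genes the sign was the same in 9472 (66.2%, 34.3% above 0 in both and 31.9% below), and the correlation of the knockout with the wild-type log2 fold change across genes was 0.384 (Pearson) and 0.407 (Spearman), where genes are not independent replicates. All 23 called genes had the same sign in both genotypes, and each had an unadjusted p under 0.05 in both. A call on both genotypes together favours each of these outcomes. Over all 14301 genes 286 had an unadjusted p under 0.05 in both (edgeR). The change was larger in the knockout in 19 of the 23, and in 10068 of all 14301 genes. The test of the difference between the genotype effects called 0 genes (0%, edgeR, lowest adjusted p = 0.121), with 1145 (8.01%) at an unadjusted p under 0.05. DESeq2 called 5, limma-voom 0 and limma-voom with library weights 21. Without Mcm8Ko_PBS replicate 2 edgeR called 480, and without Mcm8Ko_LCWE replicate 4 it called 1. Within the sample numbers from 100 to under 200, where the knockout has 1 PBS library, it called 2235.

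Of the called genes, 3 of the 9 that fell had an unadjusted interaction p under 0.05. Dock9 was at -0.76 ± 0.12 in the knockout and -0.33 ± 0.10 in wild type (edgeR adjusted p of the difference = 0.587). Rc3h1 was at -0.89 ± 0.16 in the knockout and -0.34 ± 0.13 in wild type (adjusted p = 0.587, edgeR), and Tsc22d3 at -1.07 ± 0.19 in the knockout and -0.45 ± 0.16 in wild type (adjusted p = 0.598). In each of the 3 genes Mcm8Ko_PBS replicate 1 was the highest library. The 14 genes that rose had none, and Gimap3 (1.22 ± 0.36 in the knockout, 1.21 ± 0.30 in wild type) and Cxcr3 were nearest to equal. A p that misses the threshold does not show that the effects are alike, and the difference in Gimap3 had an SE of 0.51. Within the sample numbers from 100 to under 200, 14 of the 14 genes that rose lay higher and 0 of the 9 that fell. The 1 knockout PBS library there is Mcm8Ko_PBS replicate 1. Below 100 the counts were also 14 and 0, and from 200 they were 13 and 0, both without a genotype term. The genes had been called with the libraries of all these ranges included.

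**Figure D4:**
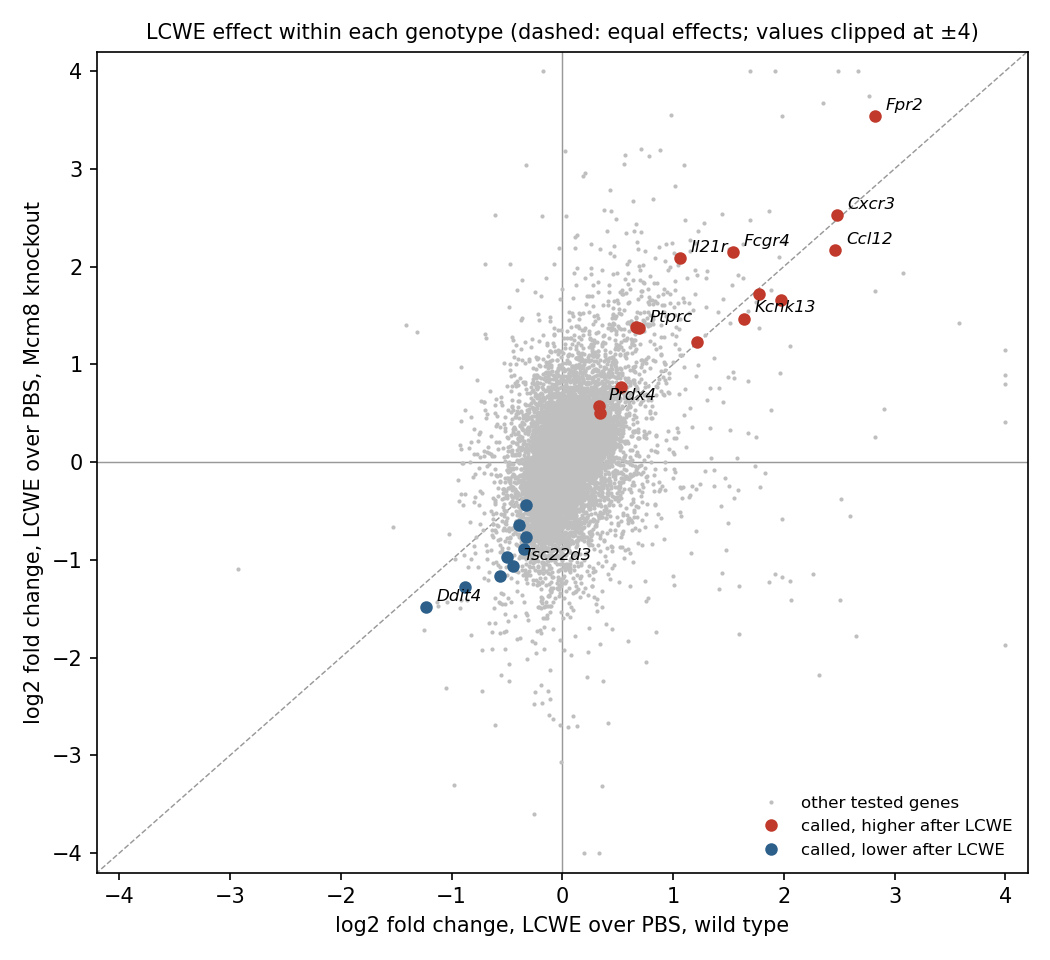
Log2 fold change of LCWE over PBS in the knockout (vertical axis) against wild type (horizontal axis) for 14301 tested genes, clipped at 4 in either direction. Called genes are red where higher and blue where lower, the dashed line marks equal effects, and all 23 lie in the quadrants of equal sign, 19 of them farther from 0 on the knockout axis.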

How the data were processed

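Heart RNA of 19 mouse samples was turned into amplified cDNA libraries with a Discover-sc WTA kit, per the labels' protocols. The deposited values are whole-number counts per gene symbol, not normalized, in 1 table, and every column matched 1 sample. Per the submitters' processing notes, STAR 2.7.8a, limma 3.36.160 and GRCm38 were involved, in roles not spelled out there. Which counting program, annotation and strand setting were used was not given in the sources used here, so overlapping genes cannot be told apart.

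From the deposited counts, genes were filtered with edgeR 4.0.16 under R 4.3.3 (filterByExpr by the 4 groups, with a count of 10 and a total of 15 as minimums), which kept 14301 of 25239 symbols. After TMM scaling, edgeR's quasi-likelihood model was fitted with its robust option, genotype and treatment as terms, and p-values were adjusted by Benjamini-Hochberg over all tested genes at 0.05. Effects within genotypes and their difference came from a model of the 4 groups. Levels are CPM with TMM factors, and standard errors are the log2 fold change over the root of its F. Coordinates are those of GENCODE M21, which held 24366 of the symbols. Members and lists were chosen with earlier results of these data known. Genes were named by a rule, namely up to 12 called genes per direction averaging 5 CPM or more, up to 4 called members of a list or 3 as values where none was called, a fixed set, and the 5 most like C1qb. The procedure was tested on simulated data.

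The alternatives were RLE and total scaling, 2 other filters, a fit without the robust option, DESeq2 1.42.0, limma-voom (limma 3.58.1), 1 surrogate variable from sva 3.50.0, covariates and subsets of libraries, and each library left out. Replicate pairs differed by a chi-square of at least 7.66 per gene within groups (7.10 between groups), so none looked like a duplicate. Replicates were numbered in accession order. 1 of the genes whose groups did not overlap is not reported here.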

Additional observations from a re-analysis of the deposited data

Results flagged for a closer look

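Of 252 sets of 1 gene in 1 group of 5 or 6 libraries, 10 held a library far from the others on the log2 scale, where chance flags about 1 in 20 sets. Wt_LCWE replicate 3, a library of high Rn45s, was highest for Fpr2 (1.53 CPM, the others 0.406 to 0.681), Ccl2 (4.59 CPM, the others 1.28 to 2.04) and Tmem176a (22.2 CPM, the others 11.9 to 14.5), and lowest for Tsc22d3 (57.3 CPM, the others 79.4 to 92.6). Wt_PBS replicate 4 was highest for S1pr1 (145 CPM, the others 110 to 118) and lowest for Mx1 (0.0667 CPM, the others 0.891 to 1.25) and Nos3 (85.1 CPM, the others 104 to 111). Dusp11 stood highest in Mcm8Ko_LCWE replicate 2 (77.3 CPM, the others 61.4 to 63.2). Alox5ap stood lowest in Wt_PBS replicate 2 (7.79 CPM, the others 8.6 to 8.76) and Tmem176a in Wt_PBS replicate 5 (8.02 CPM, the others 9.93 to 10.3).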

How the results depend on the processing

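The direction of all 23 called genes held in every alternative and left-out fit in which they were tested, while the count of calls did not. These fits reuse the libraries that made the calls, which favours a kept direction. Against 23, it was 15 with RLE size factors, 13 with library totals alone, 1 with a filter of 5 CPM in 3 libraries, 1 with a fit that is not robust, 572 with DESeq2, 3 and 2 with limma-voom without and with library weights, 1 with no genotype term, 422 for the equal-weight mean of the genotype effects, 1 with the sample-number range and 1 with the number of genes detected as a covariate, 2042 among libraries numbered 100 to under 200, 54 with the Y-linked level as a covariate and 0 without libraries with Alb over 20 CPM, which leaves 6 libraries and no knockout LCWE library. Scaling by totals gave 3 higher and 10 lower, RLE 7 and 8. Of 2 subsets added after seeing the data, libraries with Xist over 100 CPM gave 0 calls, with 1985 genes at an unadjusted p under 0.05, and leaving out the 3 wild-type LCWE libraries of highest Rn45s gave 4. Left-out fits gave 1 to 144. The interaction count, 0, was 5 with DESeq2, 21 with limma-voom with library weights, 2235 among libraries numbered 100 to under 200 and 0 to 480 with a library left out, and could not be fitted without libraries with Alb over 20 CPM. The cause of these moves was not tested. No paired analysis was possible because the replicate numbers were given in accession order and pair no samples. Genes below 5 CPM rest on few counts, which limits their precision.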
